A study of Mus musculus with 36 samples.

Results

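The effect of blocking MEK without light at the end of the night was read from 6 of the 36 arrays of a mouse suprachiasmatic nucleus (SCN) study, 3 from U0126-Sham tissue and 3 from DMSO-Sham tissue, all at CT22. Each array measured the RNA of SCN pooled from 2 adult C57BL/6J mice aged 8 to 14 weeks, so each group held 3 pools. Values were log2 intensities of 65956 probe sets, and each of the 30176 genes with a single symbol was represented by its brightest probe set. A gene passed where limma gave an adjusted p of at most 0.1, with Benjamini-Hochberg adjustment over all probe sets tested, and a fold change above 1.3.

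The U0126-Sham mice received the MEK1/2 inhibitor U0126 (10 mM) through a cannula in the lateral ventricle, and the DMSO-Sham mice received the DMSO vehicle by the same route. Mice of both groups carried the implant for at least 2 weeks by the study's methods. They spent 2 days in constant darkness and stayed in the dark during a 10 min sham pulse, 30 min after the infusion. Tissue was taken 60 min after that pulse according to the sample labels, while the study's methods give a shorter wait, a smaller infused volume and zeitgeber rather than circadian times. The remaining arrays covered the same treatments at CT4 and CT15 and, at all 3 times, with a light pulse. Both groups compared here had thus been operated on, handled and infused. The study's methods state that both sexes were used in like numbers per group, and the sex of the mice in each pool is not given in the sources used here.

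The SCN is the master circadian clock of mammals, a cluster of mostly GABAergic neurons that is reset by light through a pathway running over Ras, Raf, MEK and ERK. Active ERK switches on transcription factors and also its own brakes, the dual specificity phosphatases (Dusp) and the Sprouty and Spred proteins, and the RNA of these brakes is a common readout of pathway activity. Microglia, astrocytes and vessel cells of the same tissue also use ERK, and they answer injury, microbial products and interferons with guanylate-binding proteins, chemokines, complement and acute phase proteins. Interferons act through JAK kinases and STAT factors, which bind the interferon-stimulated response element (ISRE) or the gamma-activated sequence (GAS) in promoters.

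Interferon-responsive genes were among the decreases, and the 250 bases before the start of 4 of them are shown, with ISRE and GAS matches in capitals. The letters searched were GAAA, any 2 bases and GAAA for the ISRE and TTCNNNGAA for the GAS, on both strands, and matches of the 2 were free to overlap, which they did not do in these 4 windows. The sequences are those of RefSeq on GRCm38.p6, written 5' to 3' on the gene's strand. Gbp2 and Gbp7 encode guanylate-binding proteins, Igtp an immunity-related GTPase and Rsad2 the antiviral protein viperin.
Gbp2 (chr3:142620413-142620662, plus strand): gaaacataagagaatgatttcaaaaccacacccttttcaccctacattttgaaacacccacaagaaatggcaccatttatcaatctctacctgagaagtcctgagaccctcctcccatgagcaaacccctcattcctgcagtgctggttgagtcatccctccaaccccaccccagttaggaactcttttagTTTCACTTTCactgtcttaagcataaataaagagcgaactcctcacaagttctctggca
Gbp7 (chr3:142530086-142530335, plus strand): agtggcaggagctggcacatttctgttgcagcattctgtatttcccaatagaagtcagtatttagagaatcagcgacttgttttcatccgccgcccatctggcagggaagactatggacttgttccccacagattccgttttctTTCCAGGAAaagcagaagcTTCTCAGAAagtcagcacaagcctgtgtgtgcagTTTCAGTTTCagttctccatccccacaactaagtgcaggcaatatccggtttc
Igtp (chr11:58199306-58199555, plus strand): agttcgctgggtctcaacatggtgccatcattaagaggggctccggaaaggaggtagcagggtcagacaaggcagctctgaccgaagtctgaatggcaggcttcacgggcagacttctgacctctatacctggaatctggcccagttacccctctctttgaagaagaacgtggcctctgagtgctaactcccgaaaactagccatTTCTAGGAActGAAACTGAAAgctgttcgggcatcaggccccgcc
Rsad2 (chr12:26456453-26456702, minus strand): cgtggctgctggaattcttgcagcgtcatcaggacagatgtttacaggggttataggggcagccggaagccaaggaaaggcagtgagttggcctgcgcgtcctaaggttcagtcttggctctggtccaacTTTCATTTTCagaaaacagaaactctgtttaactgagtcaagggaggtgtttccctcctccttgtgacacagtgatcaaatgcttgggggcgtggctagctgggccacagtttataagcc

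The ISRE match lay 59 bases before the start in Gbp2, 53 in Gbp7, 34 in Igtp and 120 in Rsad2, and its capitals read TTTC first where the match was on the opposite strand. Gbp7 also held GAS matches 106 and 87 bases before its start, and Igtp held one 45 bases before. Counted over 300 bases, 250 before to 50 after the start, the ISRE letters occurred in 3.44% of all 32851 promoters of the table, and in 71 of 429 promoters (16.6%) of genes that passed as lower. They occurred in 6 of 7 promoters of interferon-inducible GTPases, 15 of 26 of type I interferon-stimulated genes, 3 of 29 of chemokines and their receptors and 0 of 12 of ERK feedback inhibitors. The GAS letters occurred in 8.3% of all promoters and 11.7% of those of genes that passed as lower. The NF-kB site, searched in the same way, occurred in 4.51% of all promoters and 12.6% of those of genes that passed as lower. It occurred in 6 of 29 promoters of chemokines and their receptors, 2 of 26 of type I interferon-stimulated genes and 0 of 7 of interferon-inducible GTPases. These shares describe letters and not bound sites, and 130 of the 496 genes that passed as lower had no promoter in the table. The same held for 8 of the 14 measured interferon-inducible GTPases, so their 7 promoters belong to 6 genes. It also held for 5 of 29 type I interferon-stimulated genes, 9 of 33 chemokines and receptors and 4 of 15 ERK feedback inhibitors.

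The 6 arrays correlated with each other at 0.989 to 0.996 over all probe sets, and no pair was identical. The 12 neuronal markers averaged 9.41 to 9.44 in U0126-Sham and 9.39 to 9.40 in DMSO-Sham arrays, and Avp, Vip and Rgs16 of the SCN lay above the 95th percentile of all genes. Xist, expressed from the inactive X of females, read 10.04, 10.19 and 3.62 in U0126-Sham and 3.50, 3.26 and 9.99 in DMSO-Sham arrays, so both groups held arrays with and without this RNA. With the Xist level as a covariate 571 genes passed, against 509 without it. The labels used here name no scan date or batch.

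The DMSO-Sham CT22 arrays stood apart from the rest of the series for immune genes, which bears on most results below. The mean log2 level of 14 interferon-inducible GTPases was 4.93 to 4.97 in the U0126-Sham arrays and 6.66 to 7.49 in the DMSO-Sham arrays of CT22. Over the 33 arrays other than DMSO-Sham CT22 it ran from 4.82 to 6.88 with a median of 5.16, and 1 of these 33, a U0126-Sham array of CT4, reached the lowest DMSO-Sham CT22 value. For chemokines, myeloid activation genes and reactive astrocyte genes, 0 of the 33 did. The U0126-Sham CT22 arrays lay within the range of the other groups for all 4 lists. How much of the difference belongs to the drug and how much to the 3 vehicle pools of CT22 cannot be told apart from these arrays. For the mean of the ERK feedback inhibitors, 12 of the 33 arrays reached the lowest DMSO-Sham CT22 value.

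**Figure D1:**
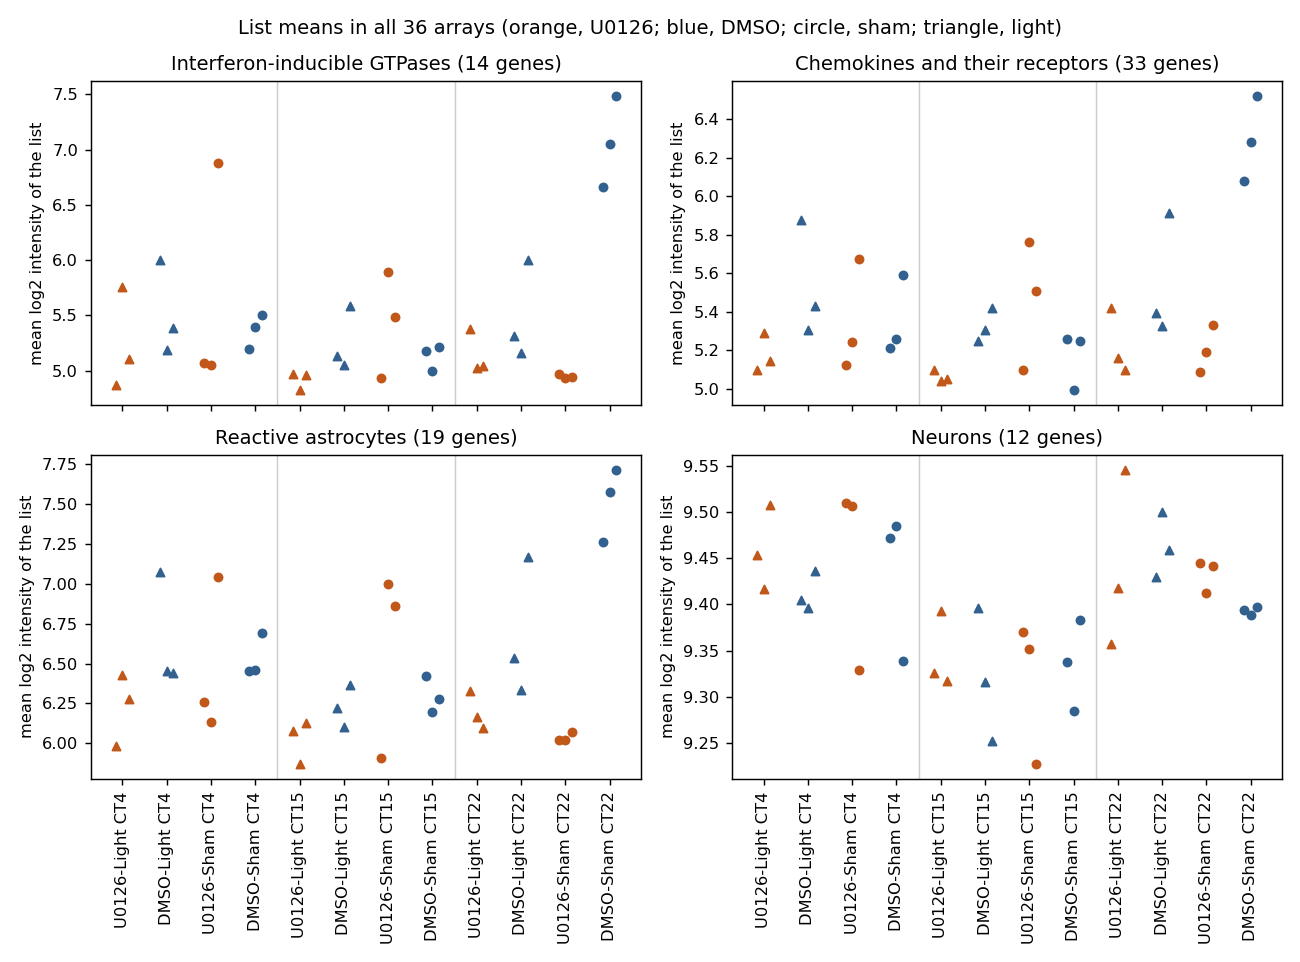
Mean log2 intensity of gene lists in each of the 36 arrays, by time, light and infusion, with 1 point per array. For the interferon-inducible GTPases the 3 U0126-Sham CT22 arrays lie at 4.93 to 4.97 and the 3 DMSO-Sham CT22 arrays at 6.66 to 7.49.

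MEK inhibition went with lower levels of far more genes than it went with higher levels. In U0126-Sham relative to DMSO-Sham SCN, 496 genes were lower (1.64% of those tested) and 13 were higher (0.0431%), while 3070 genes had an unadjusted p under 0.05. Of the 496, 178 were lower by more than 2-fold, 54 by more than 4-fold and 11 by more than 8-fold, and 461 code for proteins. The U0126-Sham and DMSO-Sham values did not overlap for 481 of them. Over all genes, values without overlap were found for 6.24% of genes with U0126-Sham lower and 7.78% with U0126-Sham higher. The median difference of all genes was 0.03, in values that had already been normalized over the arrays.

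The count rested in part on single arrays. Without replicate 3 of DMSO-Sham 273 genes passed, against 444 to 529 when any other array of the 6 was left out. Fitted on the 6 arrays alone, which gives the spread few degrees of freedom, 241 genes passed. With 3 pools a side an exact permutation test of a single gene cannot go below p = 0.1.

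The 12 largest decreases without overlap of the groups ran from 7.63-fold for Lyz2 to 23.7-fold for Cxcl13. Cxcl13, a chemokine that attracts B cells, read 3.45, 3.45 and 3.64 in U0126-Sham arrays, against 8.88, 7.95 and 7.41 in DMSO-Sham arrays. Its difference of -4.57 ± 0.89 (log2, SE) made it 23.7-fold lower (adjusted p = 0.00473). Gbp2, whose promoter is shown above, read 5.61, 5.74 and 5.64 in U0126-Sham against 9.26, 10.15 and 10.30 in DMSO-Sham arrays and was 18.9-fold lower (-4.24 ± 0.58, adjusted p = 0.000271). The U0126-Sham arrays were close together for both genes and the vehicle arrays high throughout. Acod1, the enzyme that makes itaconate in activated macrophages, read 4.57, 4.34 and 4.45 in U0126-Sham and 7.07, 8.07 and 9.39 in DMSO-Sham arrays, a 13.2-fold decrease (-3.72 ± 0.58, adjusted p = 0.000792). Il1b, the cytokine interleukin 1 beta, read 5.20, 6.90 and 5.71 in U0126-Sham and 8.79, 9.53 and 10.52 in DMSO-Sham arrays, 12.8-fold lower (-3.68 ± 0.86, adjusted p = 0.0238). The Il1b call was lost on leaving out DMSO-Sham replicate 3 (adjusted p = 0.174) or U0126-Sham replicate 1 (0.127). Lcn2, a protein that withholds iron from bacteria, read 5.27, 5.06 and 5.72 in U0126-Sham and 8.26, 9.58 and 9.02 in DMSO-Sham arrays.

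**Figure D2:**
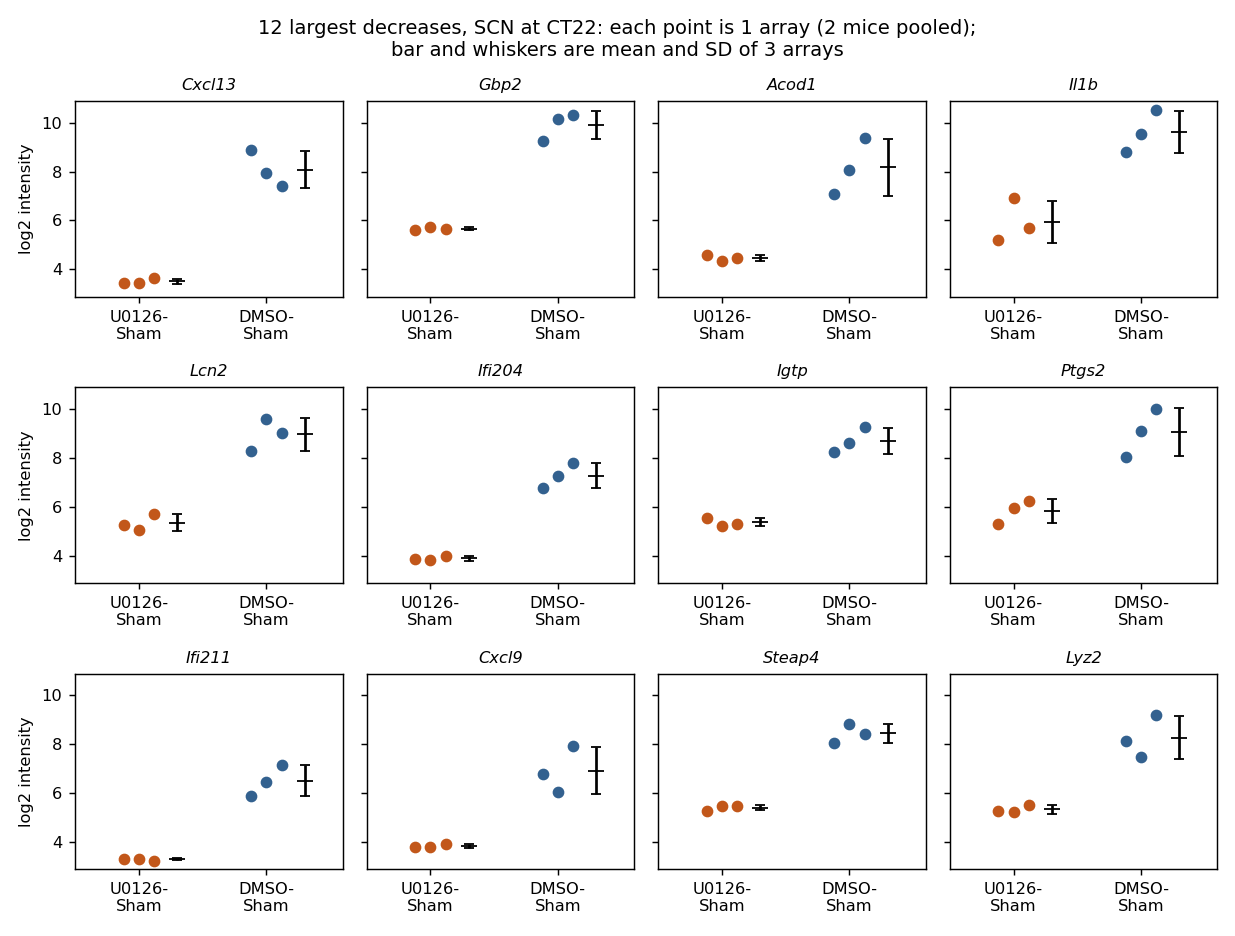
Log2 intensity of the 12 genes with the largest decreases in each U0126-Sham array (left) and each DMSO-Sham array (right) at CT22, with 1 point per pool of 2 mice and the mean and SD beside them. The genes were chosen among those that passed without overlap of the groups. By this choice no U0126-Sham value reaches the lowest DMSO-Sham value of the same gene, as for Gbp2 at 5.61 to 5.74 and 9.26 to 10.30.

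The SD of the other 7 leading decreases was 0.0383 to 0.487 in U0126-Sham and 0.387 to 0.979 in DMSO-Sham arrays, while Il1b varied as much in U0126-Sham (0.872) as in DMSO-Sham arrays (0.866). Lcn2 was 12.2-fold lower (adjusted p = 0.00933). Ifi204 and Ifi211, interferon-inducible members of the PYHIN family of DNA-binding proteins, were 10.4- and 9.29-fold lower (adjusted p = 0.00266 and 0.000792). Igtp was 10.1-fold lower, with 5.55, 5.23 and 5.31 in U0126-Sham against 8.22, 8.60 and 9.27 in DMSO-Sham arrays. Ptgs2, the cyclooxygenase of inducible prostaglandin synthesis, read 5.29, 5.94 and 6.25 in U0126-Sham against 8.05, 9.11 and 10.01 in DMSO-Sham arrays, 9.39-fold lower (adjusted p = 0.00148). Cxcl9, a T cell chemokine, was 8.42-fold lower, Steap4, a metalloreductase, 8.21-fold and Lyz2, the lysozyme of macrophages, 7.63-fold. The 11 leading genes other than Il1b passed whichever of the 6 arrays was left out.

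The ERK feedback inhibitors, whose RNA follows ERK activity, were lower in part. Of the 15 measured members 3 fell, Spry4, Dusp5 and Dusp6, beside 1.64% of all genes, and the median difference of the list was -0.09, against 0.03 over all genes. Spry4, a Sprouty protein that restrains receptor signalling to ERK, read 6.48, 6.29 and 6.52 in U0126-Sham against 7.05, 7.11 and 7.34 in DMSO-Sham arrays. Its difference was -0.73 ± 0.12 (adjusted p = 0.00104), and the groups did not overlap. Dusp5, a nuclear ERK phosphatase, read 6.88, 6.93 and 6.58 in U0126-Sham against 7.57, 7.42 and 7.68 in DMSO-Sham arrays and differed by -0.76 ± 0.17 (adjusted p = 0.0146). Dusp6, the cytoplasmic ERK phosphatase, read 6.45, 6.51 and 6.29 in U0126-Sham against 6.84, 6.90 and 7.02 in DMSO-Sham arrays and differed by -0.50 ± 0.14 (adjusted p = 0.0711).

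Of these 3 only Spry4 passed whichever array was left out. Dusp5 was lost when DMSO-Sham replicate 3 (adjusted p = 0.112) or U0126-Sham replicate 3 (0.116) was left out, and Dusp6 passed only when U0126-Sham replicate 2 was left out (adjusted p of 0.11 to 0.294 without each of the others). Spry2 (-0.37, adjusted p = 0.139) and Dusp4 (-0.42, adjusted p = 0.223) did not pass. Spry2 passed without U0126-Sham replicate 2 (0.067) and Dusp4 without DMSO-Sham replicate 1 (0.0445). Spry1, Spred1 and Il17rd differed by -0.01, -0.06 and 0.05.

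The feedback list had a lower mean with U0126 at every time, without light and, at CT22, with it. Its mean was 6.61 to 6.68 in U0126-Sham and 6.81 to 6.99 in DMSO-Sham arrays at CT22. At CT4 it was 6.64 to 6.71 and 6.87 to 6.93, and at CT15 6.53 to 6.57 and 6.69 to 6.81, in U0126-Sham and DMSO-Sham arrays. With light at CT22 it was 6.65 to 6.72 in U0126-Light and 6.85 to 6.95 in DMSO-Light arrays. The groups did not overlap in any of the 4 pairs. Spry4 differed by -0.71 at CT4 (adjusted p = 0.12), -0.45 at CT15 (0.037), -0.73 at CT22 and -0.80 with light at CT22 (0.021), and Dusp6 by -0.67, -0.61, -0.50 and -0.47 in the same order. None of the 15 members passed the test that the drug's effect at CT22 differed from that at CT15, at CT4 or with light.

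**Figure D3:**
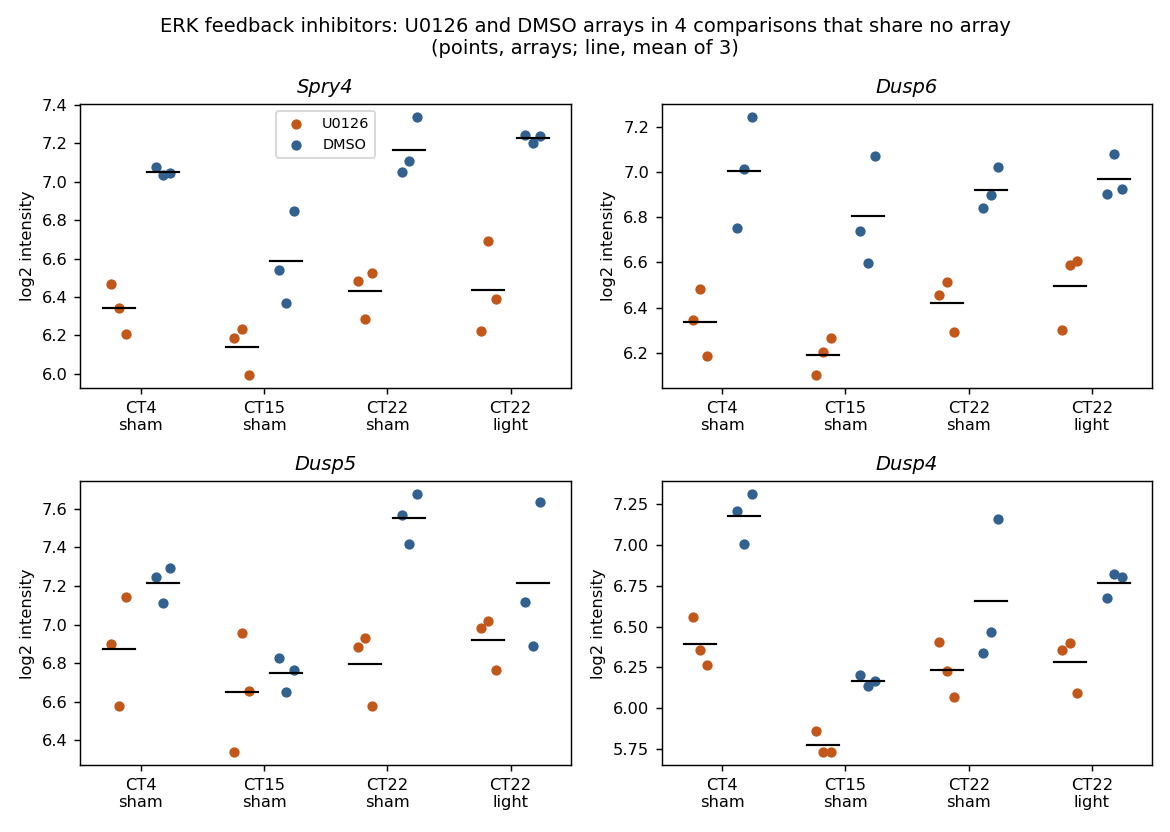
Log2 intensity of ERK feedback genes in U0126 and DMSO arrays at each time and with light at CT22, with 1 point per pool. Spry4 lies at 6.29 to 6.52 in U0126-Sham and 7.05 to 7.34 in DMSO-Sham arrays of CT22.

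Among 18 measured ERK target genes, many of them transcription factors, Myc and Ier3 fell and the others did not pass. Over all genes 1.64% were lower. Myc, a growth-promoting factor, read 6.61, 6.46 and 6.60 in U0126-Sham against 6.92, 7.17 and 7.24 in DMSO-Sham arrays (-0.55 ± 0.13, adjusted p = 0.033). Ier3, an immediate early gene, differed by -0.90 ± 0.25 (adjusted p = 0.0871). Myc was lost on leaving out DMSO-Sham replicate 2 or 3 or U0126-Sham replicate 2 (adjusted p = 0.139, 0.201 and 0.129). Ier3 was lost on leaving out any array but DMSO-Sham replicate 1 (adjusted p of 0.116 to 0.341). Fos, the immediate early gene most used as an activity marker, differed by 0.48 with an adjusted p of 0.843, and its groups overlapped. Egr1 differed by -0.01, Etv4 by 0.09 and Etv5 by 0.04, none of them past the test.

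In the Ras to ERK cascade itself 1 of 15 genes fell, and in the immediate early and activity list 1 of 24, single calls beside 1.64% of all genes. Rras, a Ras-related GTPase, read 7.47, 7.38 and 7.44 in U0126-Sham against 7.70, 7.96 and 8.35 in DMSO-Sham arrays (-0.57 ± 0.12, adjusted p = 0.00665), and was lost when DMSO-Sham replicate 3 was left out (0.114). The MEK genes Map2k1 and Map2k2 differed by 0.05 and -0.03. The immediate early gene that fell was Klf6, a zinc finger factor (-0.57 ± 0.15, adjusted p = 0.0522). That call was lost without DMSO-Sham replicate 2 or 3 or U0126-Sham replicate 3 (adjusted p = 0.284, 0.231 and 0.27).

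Interferon-inducible GTPases, which coat and break open the vacuoles of intracellular pathogens, fell almost as a block. Of the 14 measured 12 passed, with a median of -2.23, and 10 to 12 passed when any array was left out. Gbp7 read 5.86, 5.81 and 5.66 in U0126-Sham against 8.13, 8.51 and 8.92 in DMSO-Sham arrays, 6.68-fold lower (adjusted p = 0.000565). Irgm1, a regulatory immunity-related GTPase, read 5.68, 5.53 and 5.73 in U0126-Sham against 7.53, 7.65 and 8.58 in DMSO-Sham arrays, 4.85-fold lower (adjusted p = 0.000859). The 2 that did not pass were Mx1 (-0.26, adjusted p = 0.19) and Mx2 (-0.55, adjusted p = 0.16), the dynamin-like antiviral proteins.

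Type I interferon-stimulated genes fell in 27 of 29 cases, with a median of -1.17, and 23 to 26 passed when any array was left out. Rsad2 read 4.50, 4.49 and 4.46 in U0126-Sham against 6.71, 6.85 and 6.74 in DMSO-Sham arrays, 4.87-fold lower (adjusted p = 0.000509), with both groups close together. Samhd1, which degrades the nucleotides that viruses need, fell by 0.77 on the log2 scale (adjusted p = 0.000269). Ube2l6, the conjugating enzyme of the ubiquitin-like protein Isg15, fell by 0.80 (adjusted p = 0.000343), and Parp12, an antiviral ADP-ribosyltransferase, by 0.90 (adjusted p = 0.000826). All 4 passed whichever array was left out. Oas3 (-0.05) and Cmpk2 (-0.26) were the members that did not pass.

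Of 20 genes of interferon signalling itself 6 fell, with a median of -0.37. They included the transcription factors Stat2 (-0.88, adjusted p = 0.00082), Irf7 (-1.24, adjusted p = 0.00206) and Irf9 (-0.85, adjusted p = 0.00182), and Cd274, the checkpoint ligand PD-L1, at 6.16, 6.12 and 5.96 in U0126-Sham against 7.38, 8.25 and 8.91 in DMSO-Sham arrays (4.29-fold lower, adjusted p = 0.000821). When single arrays were left out the count ran from 4, without DMSO-Sham replicate 3, to 10, without DMSO-Sham replicate 1. The interferon receptor subunit Ifnar2 differed by -0.37 with an adjusted p of 0.00991, just short of the 1.3-fold limit, and it passed when DMSO-Sham replicate 1 or 2 or U0126-Sham replicate 1 or 2 was left out (-0.38 to -0.42). Ifnb1 (0.09, adjusted p = 0.88) and Ifng (-0.85, adjusted p = 0.14), the interferons measured, did not pass. The counts of all lists were read against the 1.64% of all genes that passed as lower.

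**Figure D4:**
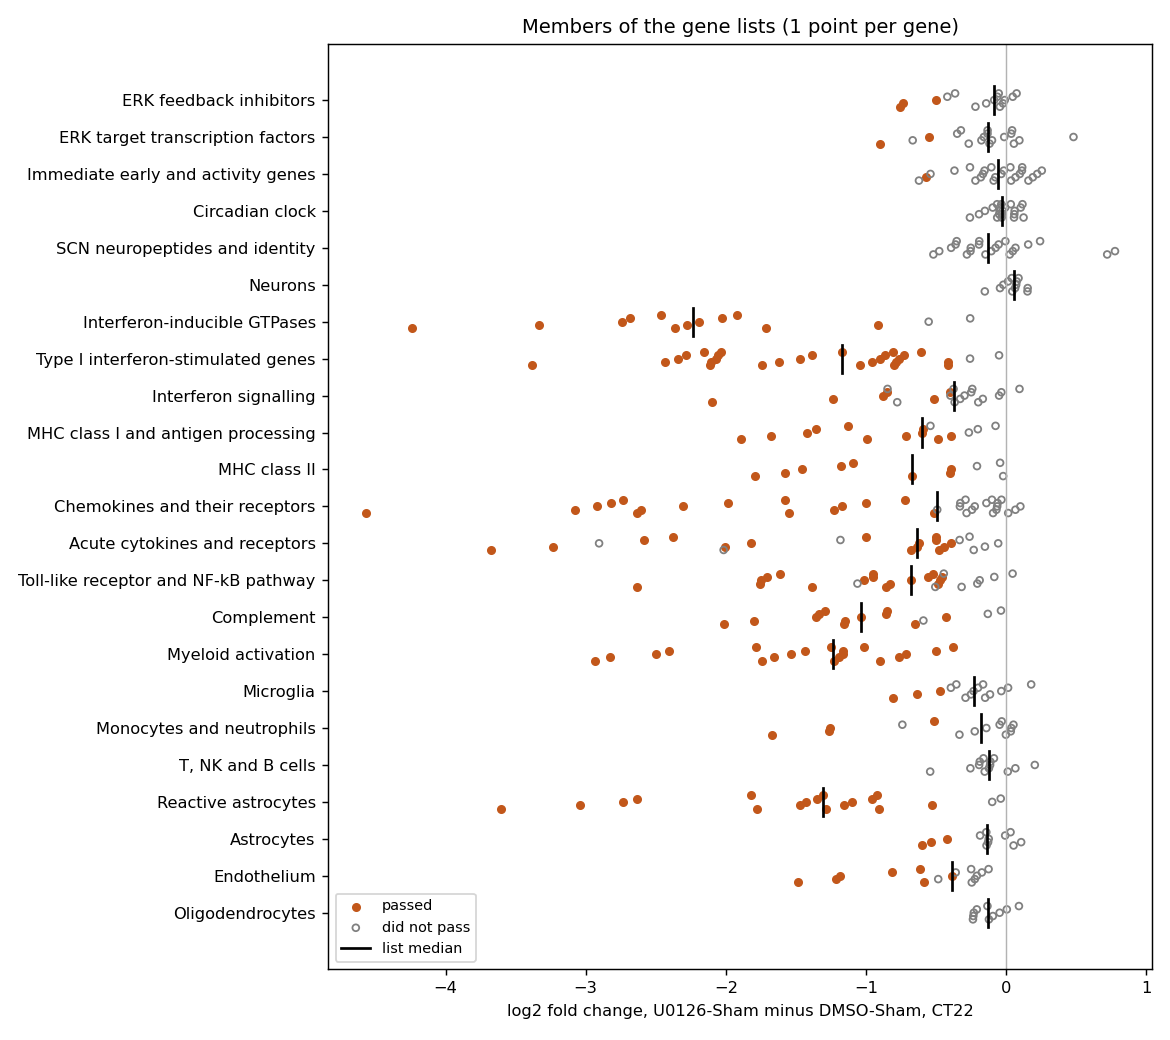
Log2 difference, U0126-Sham minus DMSO-Sham at CT22, of each measured member of the gene lists, with 1 point per gene and filled points for genes that passed. Of the interferon-inducible GTPases 12 of 14 and of the type I interferon-stimulated genes 27 of 29 passed as lower, beside 1.64% of all genes. Of the clock genes 0 of 21 passed, which lies near that share.

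Genes of antigen presentation were lower in both classes. In the MHC class I list 11 of 15 genes fell, with a median of -0.60, and in the class II list 8 of 11, with a median of -0.67. Psmb8, a subunit of the immunoproteasome that cuts peptides for class I, read 4.92, 4.99 and 5.26 in U0126-Sham against 6.19, 5.96 and 6.42 in DMSO-Sham arrays (2.19-fold lower, adjusted p = 0.00281). Tapbp, which loads peptides onto class I, fell by 0.60 (adjusted p = 0.0041). H2-Ab1, a class II chain, read 5.16, 5.26 and 5.57 in U0126-Sham against 7.09, 6.95 and 7.34 in DMSO-Sham arrays (3.47-fold lower, adjusted p = 0.00198). Ciita, the master factor of class II transcription, differed by -0.02. The counts fell to 4 and 2 without DMSO-Sham replicate 3, and the class II count was 5 without U0126-Sham replicate 1 or 2.

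Chemokines are the ligands that steer leukocytes, and many of the inducible ones were lower. Of 33 measured ligands and receptors 16 fell (10 without DMSO-Sham replicate 3), with a median of -0.49. Ccl2, which draws in monocytes, read 6.02, 6.32 and 7.47 in U0126-Sham against 8.66, 9.67 and 9.93 in DMSO-Sham arrays, 7.05-fold lower (adjusted p = 0.00182). Ccl7, a close relative, was 6.66-fold lower (adjusted p = 0.00142) and Ccl5, which draws in T cells, 6.08-fold (adjusted p = 0.00171). Cxcl2, a neutrophil attractant, was 3.96-fold lower (adjusted p = 0.00314) but did not pass in the fit of the 6 arrays alone (0.26). The receptors Ccr1 (-0.49), Ccr2 (-0.22), Cxcr2 (-0.14), Cxcr3 (-0.09) and Cxcr4 (-0.28) did not pass. Cx3cr1, the fractalkine receptor of microglia, differed by -0.29 (adjusted p = 0.166) and passed only without DMSO-Sham replicate 2 (-0.43).

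Acute cytokines and their receptors fell in 15 of 23 cases, with a median of -0.64. Il1rn, the natural antagonist of interleukin 1, read 3.74, 3.76 and 3.99 in U0126-Sham against 5.51, 6.16 and 7.56 in DMSO-Sham arrays, 5.98-fold lower (adjusted p = 0.001). Osmr, the oncostatin M receptor, was 3.54-fold lower (adjusted p = 0.000698). Tnf read 5.59, 6.56 and 6.01 in U0126-Sham against 8.07, 8.07 and 8.04 in DMSO-Sham arrays (adjusted p = 0.017). Il6 (-2.02, adjusted p = 0.23) and Il1a (-2.90, adjusted p = 0.12) had large differences that did not pass.

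The Toll-like receptor and NF-kB list fell in 17 of 25 cases, with a median of -0.68. Tlr2, a sensor of bacterial lipoproteins, read 6.24, 6.80 and 6.77 in U0126-Sham against 8.06, 8.45 and 8.42 in DMSO-Sham arrays (3.27-fold lower, adjusted p = 0.00474). Tlr3, the sensor of double-stranded RNA, fell by 0.68 (adjusted p = 0.000588). Without DMSO-Sham replicate 3 the count was 9 for the cytokine list and 6 for this one. This count was also 11 without DMSO-Sham replicate 2 and 10 without U0126-Sham replicate 3.

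Complement genes fell in 12 of 15 cases, with a median of -1.03. Serping1, the inhibitor of the first complement component, read 6.21, 6.58 and 6.46 in U0126-Sham against 8.36, 8.42 and 8.50 in DMSO-Sham arrays, 4.03-fold lower (adjusted p = 0.000987). C1ra, a protease of that component, was 2.46-fold lower (adjusted p = 0.000483), and C1qb, its recognition chain and an abundant microglial product, read 8.29, 8.19 and 8.18 in U0126-Sham against 9.46, 9.29 and 9.91 in DMSO-Sham arrays (adjusted p = 0.00469). Cfb, factor B of the alternative pathway, fell by 0.86 (adjusted p = 0.00206) but did not pass in the fit of the 6 arrays alone (0.321). The count was 6 without DMSO-Sham replicate 3.

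All 20 measured genes of myeloid activation fell, with a median of -1.24, and 13 passed without DMSO-Sham replicate 3. Cybb, the NADPH oxidase of phagocytes, read 3.64, 3.48 and 3.69 in U0126-Sham against 5.90, 5.17 and 6.95 in DMSO-Sham arrays (5.29-fold lower, adjusted p = 0.000667). Lilrb4a, an inhibitory receptor of myeloid cells, was 7.09-fold lower (adjusted p = 0.00105). In whole tissue, fewer cells of a type and less RNA per cell cannot be told apart.

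Of 15 markers of microglia, the resident macrophages of the brain, 3 fell, Csf1r, Tyrobp and Aif1 (adjusted p = 0.093), with a median of -0.23. Tyrobp, a microglial signalling adaptor, fell by 0.81 (adjusted p = 0.0159) and was lost when DMSO-Sham replicate 3 was left out (0.197). Csf1r, the receptor that keeps microglia alive, differed by -0.64 (adjusted p = 0.0547) and passed only without DMSO-Sham replicate 2 among the leave-outs (adjusted p of 0.113 to 0.351 in the others). The homeostatic markers P2ry12 (-0.17), Tmem119 (-0.12), Sall1 (0.01) and Gpr34 (-0.04) did not pass.

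Markers of cells that enter from blood were mixed. Of 14 monocyte and neutrophil markers 4 fell. Ly6c2, high on inflammatory monocytes, read 7.81, 7.76 and 7.72 in U0126-Sham against 8.96, 8.54 and 9.58 in DMSO-Sham arrays (adjusted p = 8.2e-05), and Ly6g, a neutrophil surface protein, fell by 0.52 (adjusted p = 0.00144). Neither passed in the fit of the 6 arrays alone (adjusted p = 0.114 and 0.103). S100a8 and S100a9, the calprotectin pair of neutrophils, read 3.09 and 4.06 in DMSO-Sham replicate 1 but 6.17 and 6.59 in replicate 2, and their groups overlapped. S100a8 was lost without DMSO-Sham replicate 2 or 3 or U0126-Sham replicate 2 (adjusted p of 0.108 to 0.34), and S100a9 in every leave-out but that of DMSO-Sham replicate 1 (0.135 to 0.523). The granule genes Mpo (0.05), Ngp (-0.03), Camp (0.03) and Ltf (0.04) and the monocyte receptor Ccr2 did not pass. The mean of the 14 markers was 3.90 to 4.18 in U0126-Sham and 4.14 to 4.62 in DMSO-Sham arrays, and the part of such cells in the other results was not tested.

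Lymphocyte markers did not pass, with 0 of 13 T, NK and B cell genes, a count near the 1.64% of all genes that were lower. The mean of the 13 was 3.84 to 4.14 in U0126-Sham and 3.95 to 4.19 in DMSO-Sham arrays. Cd3e, the T cell receptor subunit, differed by -0.54 (adjusted p = 0.379). The B cell markers Ms4a1 and Cd79a differed by 0.01 and 0.20, beside the 23.7-fold decrease of the B cell chemokine Cxcl13.

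Reactive astrocyte genes fell in 17 of 19 cases, with a median of -1.31, and 13 to 15 passed when any array was left out. Gfap, the intermediate filament of astrocytes, read 9.33, 9.31 and 9.18 in U0126-Sham against 10.59, 10.77 and 10.87 in DMSO-Sham arrays (adjusted p = 0.0047). Serpina3n, a protease inhibitor of reactive astrocytes, read 8.15, 8.14 and 8.24 in U0126-Sham against 10.46, 10.90 and 11.35 in DMSO-Sham arrays and was 6.64-fold lower (adjusted p = 0.0013). Cp, the copper carrier ceruloplasmin, was 3.43-fold lower (adjusted p = 0.000984), and S100a6, a calcium-binding protein, 2.23-fold (adjusted p = 8.2e-05). Of 12 general astrocyte markers 3 fell. Slc14a1, a urea transporter, fell by 0.53 (adjusted p = 0.000271), while the glutamate transporters Slc1a2 and Slc1a3 differed by -0.01 and -0.14. The glial factor Sox9 fell by 0.60 (adjusted p = 0.0403) but did not pass when any of the DMSO-Sham replicates or U0126-Sham replicate 3 was left out (0.109 to 0.237).

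Vessel genes fell in 7 of 15 endothelial cases (4 without U0126-Sham replicate 1), with a median of -0.39. The adhesion molecules that hold leukocytes were among them. Vcam1 read 6.83, 6.98 and 6.86 in U0126-Sham against 7.77, 8.01 and 8.55 in DMSO-Sham arrays (2.33-fold lower, adjusted p = 0.00148), and Sele, E-selectin, was 2.8-fold lower (adjusted p = 0.00259). Sele did not pass in the fit of the 6 arrays alone (adjusted p = 0.362). The junction protein Cdh5 fell by 0.59 (adjusted p = 0.00123), whereas Cldn5 (-0.25) and Kdr (-0.21) did not pass. Rgs5 of pericytes fell by 0.62 (adjusted p = 0.00206), the only one of 10 pericyte and muscle genes. Its highest U0126-Sham value, 7.42, lay below the lowest of the 30 arrays of other groups, 7.59, and 22 of these 30 reached the lowest DMSO-Sham value. Igfbp7, a secreted matrix protein, had the smallest adjusted p of all genes, with 8.01, 8.09 and 7.87 in U0126-Sham against 9.05, 8.96 and 9.15 in DMSO-Sham arrays (2.09-fold lower, adjusted p = 6.91e-05). It and Fn1, fibronectin (-0.86, adjusted p = 0.00844), were the members of the 16 meningeal fibroblast genes that fell, and the collagens Col1a1 (0.05) and Col1a2 (-0.07) did not pass.

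No gene of the clock or of neurons passed. None of 21 clock genes did, with a median of -0.03 and differences from -0.26 to 0.12. Over all genes 1.64% were lower and 0.0431% higher, so 0 calls in lists this short lie near that share. Per1 read 7.82, 7.83 and 7.77 in U0126-Sham against 7.46, 7.82 and 7.79 in DMSO-Sham arrays (adjusted p = 0.759), and Per2 read 7.15, 7.12 and 7.08 in U0126-Sham against 7.11, 7.16 and 7.17 in DMSO-Sham arrays (adjusted p = 0.922). None of 22 SCN identity genes, 12 GABA genes, 12 neuronal markers, 10 oligodendrocyte markers or 7 ependymal markers passed, nor any of 2 blood and 4 sex-linked genes. Of the 22 SCN identity genes, however, 8 were lower without overlap of the groups, beside 6.24% of all genes. The median of that list was -0.13, with differences from -0.52 to 0.78. Of 14 heat shock and glucocorticoid genes the metallothionein Mt2 passed (-0.39, adjusted p = 0.066), with groups that overlapped and a call lost without replicate 2 or 3 of either group (0.171 to 0.393). Avp, the vasopressin of the SCN shell, read 10.86, 11.11 and 10.80 in U0126-Sham against 9.97, 10.31 and 10.33 in DMSO-Sham arrays, a difference of 0.72 ± 0.26 that did not pass (adjusted p = 0.291). Rgs16, a regulator of G protein signalling, differed by -0.52 (adjusted p = 0.183). The fold limit of the rule was 0.38 on the log2 scale, so smaller differences in these lists could not pass. Larger ones, as for Avp and Rgs16, did not pass either, so changes beyond that limit can also have been missed.

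The 13 increases were small and dim. Their differences ran from 0.39 to 0.59, all lay below the median level of genes, and 6 code for proteins. Scgn, the calcium sensor secretagogin of neuroendocrine cells, read 4.80, 4.99 and 5.25 in U0126-Sham against 4.43, 4.48 and 4.38 in DMSO-Sham arrays (0.58 ± 0.15, adjusted p = 0.0501). It passed only without U0126-Sham replicate 1 among the leave-outs (adjusted p of 0.103 to 0.305 in the others). Gm23041, a predicted small nuclear RNA, differed by 0.59 (adjusted p = 0.0165), and Defb39, a beta-defensin, by 0.52 (adjusted p = 0.0149). The Gm23041 call was lost on leaving out DMSO-Sham replicate 3 (0.118) or U0126-Sham replicate 1 (0.117), and that of Defb39 on leaving out replicate 3 of DMSO-Sham (0.107) or of U0126-Sham (0.137). Gm2892, Gm9427, Gm13702, Zim2 and Cldn20, the next in size, differed by 0.43 to 0.45. None of these 8 increases passed in the fit of the 6 arrays alone (adjusted p of 0.125 to 0.6), and Scgn, Defb39, Gm2892, Zim2 and Cldn20 did not pass in the 12 arrays of CT22. With array weights Scgn, Gm2892 and Gm13702 did not pass. When single arrays were left out, Gm2892 passed each time and Gm9427 missed the threshold without DMSO-Sham replicate 3 (adjusted p = 0.147). Gm13702 did not pass without any 1 DMSO-Sham array or without U0126-Sham replicate 3 (0.119 to 0.295). Zim2 did not pass without DMSO-Sham replicate 1 or 3 or U0126-Sham replicate 3 (0.113 to 0.209). Cldn20 did not pass without DMSO-Sham replicate 2 (0.38) or U0126-Sham replicate 3 (0.359). Among brighter genes, Gabrq, a GABA-A receptor subunit, read 8.49, 8.63 and 8.55 in U0126-Sham against 8.16, 8.05 and 8.22 in DMSO-Sham arrays. Glp1r, the receptor of glucagon-like peptide 1, read 7.86, 8.06 and 8.09 in U0126-Sham against 7.47, 7.49 and 7.70 in DMSO-Sham arrays. Neither passed (adjusted p = 0.13 and 0.154), nor did Nrsn2, a neuronal membrane protein (0.43, adjusted p = 0.154), or Cd59a, an inhibitor of complement lysis (-0.11, adjusted p = 0.878).

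The same drug effect was then set beside that at the other times. At CT4 no gene passed by limma (0% of those tested) and 1506 had an unadjusted p under 0.05. At CT15 24 genes were lower (0.0795%) and 502 higher (1.66%). The 496 genes lower at CT22 had a median difference of -0.77 there by choice, 0.01 at CT4 and 0.14 at CT15. Gbp2 differed by 0.35 at CT4 and 0.15 at CT15, Cxcl13 by 1.16 and 1.18, and Il1b by -0.35 and 2.25, and none of these passed. Some but not all U0126-Sham arrays of these times stood high. Il1b read 5.19, 8.38 and 9.01 in U0126-Sham against 5.80, 4.71 and 5.31 in DMSO-Sham arrays of CT15, and Gbp2 read 6.93, 6.39 and 9.47 in U0126-Sham against 7.29, 7.49 and 6.96 in DMSO-Sham arrays of CT4.

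The difference in drug effect was tested directly. Between CT22 and CT15, 532 genes passed with the CT22 effect lower (1.76%) and 36 with it higher (0.119%), and after quantile normalization of the deposited values 461 and 133. Without U0126-Sham CT15 replicate 2 the total was 345. Among the lists, 14 of 14 interferon-inducible GTPases, 27 of 29 type I interferon-stimulated genes and 20 of 20 myeloid activation genes passed this test, which contains the CT22 difference that was known when the lists were chosen. Between CT22 and CT4, 162 passed as lower (0.537%) and 15 as higher (0.0497%), with 11, 17 and 3 genes of the same lists. This second count was not steady. It was 32 without DMSO-Sham CT4 replicate 1, 89 without DMSO-Sham CT4 replicate 2, 35 without U0126-Sham CT4 replicate 3, 271 without U0126-Sham CT4 replicate 1, 31 without DMSO-Sham CT22 replicate 3 and 79 without U0126-Sham CT22 replicate 3.

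**Figure D5:**
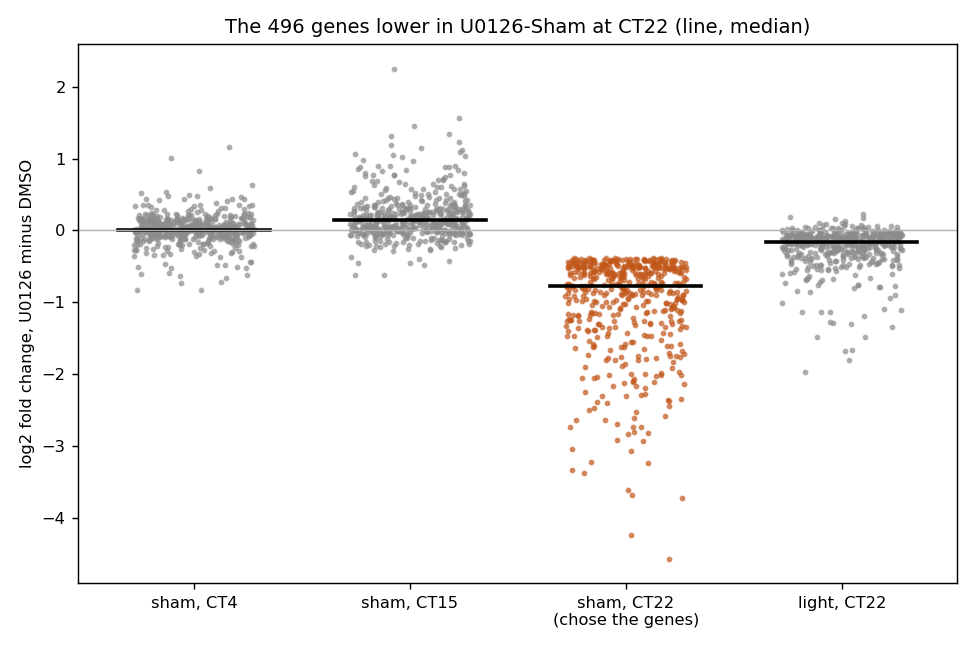
Log2 difference, U0126 minus DMSO, of the 496 genes lower in U0126-Sham at CT22, with 1 point per gene and a line at the median, at CT4, CT15 and CT22 without light and at CT22 with light. The medians are 0.01, 0.14, -0.77 and -0.16, and the CT22 values without light chose the genes.

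With light at CT22 a single gene passed, Spry4 (0.00331% as lower, 0% as higher), and 1648 had an unadjusted p under 0.05. The 496 genes had a median of -0.16 in U0126-Light relative to DMSO-Light SCN. Gbp2 differed by -1.35 with light and Rsad2 by -0.05, against -4.24 and -2.28 without. The difference between the drug effect without light and with it passed for 0 genes by limma, and 1607 had an unadjusted p under 0.05. For Cxcl9 that difference was -2.93 (adjusted p = 0.245), and for Igtp -2.98 (adjusted p = 0.338). Calls without light and their near absence with it were therefore not shown to differ in the fit of all 36 arrays, although 15 genes passed in a fit of the 12 arrays of CT22 and 11 and 4 without DMSO-Sham replicate 1 or 2.

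On the scale of levels, the GTPase mean at CT22 was 5.02 to 5.37 in U0126-Light and 5.16 to 6.00 in DMSO-Light arrays, beside 4.93 to 4.97 in U0126-Sham and 6.66 to 7.49 in DMSO-Sham arrays. DMSO-Light relative to DMSO-Sham SCN at CT22, a comparison that shares the DMSO-Sham arrays with the one described here, had 265 genes lower (0.878%) and 11 higher (0.0365%). Gbp2 differed by -2.20 in it, Cxcl9 by -2.99 and Rsad2 by -2.01. Of the 496 genes lower with U0126, 233 also passed as lower in this comparison without the drug, beside 0.878% of all genes. Their median in it was -0.59. So did 13 of 14 interferon-inducible GTPases and 25 of 29 type I interferon-stimulated genes. The same DMSO-Sham arrays enter both comparisons, so the 2 sets of calls are not independent.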

How the data were processed

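RNA of pooled SCN was labelled with the WT Plus kit and hybridised to GeneChip Mouse Transcriptome Assay arrays. The deposited values were log2 intensities per probe set, which the authors had read and summarised with the Bioconductor package oligo and normalized over the arrays; the background correction, the exact normalization and the genome build are not given in the sources used here. The submitters' processing notes name limma. The values were used as deposited, with no column left unmapped.

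The table held 72688 probe sets, of which 6732 were controls and the other 65956 entered the tests. Genes were named from GEO's platform annotation: 30638 probe sets had 1 symbol, 2176 several and 33142 none, and the brightest probe set over the 36 arrays stood for each gene. Symbols of 29849 of 30176 genes matched RefSeq. A model with 12 group means over all 36 arrays was fitted with limma 3.58.1 in R 4.3.3 (lmFit, eBayes), with Benjamini-Hochberg adjustment over all probe sets tested. The limits for a call, 0.1 for p and 1.3 for the fold, follow the study, whose methods name no adjustment of p while its results use an adjusted one; the adjusted p was used here. Differences in drug effect were tested as contrasts of that model. The fit was tested on simulated data.

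Named genes were the 12 largest decreases and 8 largest increases that passed without overlap, at most 6 members per list by smallest p, every ERK feedback and sex-linked gene, and Cxcl9, Cxcl13, Gabrq, Nrsn2, Glp1r, Cd59a, Per1, Per2 and Fos; other genes named were list members or were chosen after their values were seen. The members and the 31 gene lists, some of which share genes, were chosen with earlier results of these data known. Replicates were pools of 2 mice; precision was limited by 3 arrays a group. Alternatives were other sets of arrays, other scalings, a filter on dim probe sets, other thresholds, a replicate block, an Xist covariate and leaving out each array.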

Additional observations from a re-analysis of the deposited data

Results flagged for a closer look

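The drug effect without light differed between CT22 and the other times by a test of the difference itself, for 568 genes against CT15 and 177 against CT4. The test was the contrast of U0126-Sham minus DMSO-Sham at CT22 minus the same at the other time in limma, with Benjamini-Hochberg adjustment over all probe sets.

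The 12 leading decreases are given as a description. They were chosen for the CT22 difference, which is a term of both contrasts, so their direction and part of their size were fixed by the choice. Against CT15 the differences in log2 effect were -5.75 for Cxcl13, -4.39 for Gbp2, -5.29 for Acod1 and -5.93 for Il1b. They were -4.94 for Lcn2, -4.84 for Ifi204, -3.73 for Igtp and -4.08 for Ptgs2. For the last 4, Ifi211 stood at -4.28, Cxcl9 at -3.335, Steap4 at -3.83 and Lyz2 at -3.38.

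Against CT4 the differences were -5.73 for Cxcl13, -4.59 for Gbp2, -3.87 for Acod1 and -3.54 for Ifi204. They were -3.96 for Igtp, -3.45 for Ifi211, -3.90 for Cxcl9 and -3.62 for Steap4. The other leading genes did not pass the limma test against CT4. These were Lcn2 (-4.10, adjusted p = 0.119), Lyz2 (-2.85, 0.196), Ptgs2 (-2.50, 0.249) and Il1b (-3.32, 0.388).

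The high values of the DMSO-Sham CT22 arrays enter both tests, as do high values in some U0126-Sham arrays of the other times. Il1b read 8.38 and 9.01 in U0126-Sham CT15 replicates 2 and 3 but 5.19 in replicate 1, and Acod1 read 6.95 and 5.97 against 4.61. In U0126-Sham CT4 replicate 3, Gbp2 read 9.47 and Cxcl13 7.47, against at most 6.93 and 3.63 in replicates 1 and 2. The part of these arrays in the differences of single genes was not tested.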

How the results depend on the processing

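Of 93 genes followed, 75 passed, 47 passed in every alternative and 53 whichever array was left out, and none of the 75 changed direction, while Spry1 (-0.09 to 0.11) and Il17rd (-0.00183 to 0.07), which did not pass, lay on both sides of 0. The count of 509 genes (740 probe sets) was 391 in the 12 arrays of CT22, 241 (331 probe sets) in the 6 arrays alone, and 702 (1477 probe sets) at an unadjusted p of 0.1. Leaving out single arrays gave 273 to 529 genes and 441 to 836 probe sets, lowest without DMSO-Sham replicate 3. The 568 genes of the difference from CT15 became 1468 at an unadjusted p of 0.1 and 345 to 631 without single arrays. The 177 of the difference from CT4 became 66 at an adjusted p of 0.05, 1155 at an unadjusted p of 0.1, 282 with genes of 1 symbol only, 266 with Xist as a covariate and 31 to 271 without single arrays. The 0 of the difference between sham and light became 15 in the 12 arrays of CT22, 775 at an unadjusted p of 0.1, 1 with Xist as a covariate and 0 to 11 without single arrays. The cause was not tested. Deviations of arrays of the same replicate number correlated at 0.0239, 0.18 and 0.168, against -0.185 to 0.0336 for other pairs, and every array but DMSO-Sham replicate 1 correlated best with its own number, a hint from the data and not from the design. As 1 pair stood near 0, the numbers were not taken to pair the pools. With the replicate number as a block 503 genes passed, and Dusp6, Ier3, S100a9 and Mt2 did not (adjusted p of 0.101 to 0.12). With 3 pools a side and log2 values only, what the arrays did not detect above background cannot be given.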

Other observations

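Of the 496 genes that passed as lower in U0126-Sham relative to DMSO-Sham SCN at CT22, 186 belonged to a list described above and 310 to none. Among those outside the lists were components of the inflammasome and of inflammatory cell death, chosen here after their values were seen. Nlrp3, the sensor of the best known inflammasome, read 4.39, 4.77 and 4.73 in U0126-Sham against 5.65, 6.22 and 6.66 in DMSO-Sham arrays (-1.55, adjusted p = 0.00286). Casp4, which in mouse is the caspase that binds cytosolic lipopolysaccharide, read 3.42, 3.63 and 3.53 in U0126-Sham against 4.97, 5.72 and 6.05 in DMSO-Sham arrays (-2.05, adjusted p = 0.00538). Casp1, the protease that matures interleukin 1 beta, differed by -1.33 (adjusted p = 0.0252), and Gsdmd, the pore former that both caspases cut, by -0.41 (adjusted p = 0.0202). The groups did not overlap for any of the 4, as for 481 of the 496 genes from which they were chosen.

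Other genes outside the lists that passed as lower were also chosen after their values were seen. Zbp1, a sensor of Z-form nucleic acids, differed by -1.38 (adjusted p = 0.00216), and Sting1, the adaptor of cytosolic DNA sensing, by -1.26 (adjusted p = 0.000449). Clec7a, the beta-glucan receptor Dectin-1, differed by -2.13 (adjusted p = 0.0236). Hcar2, the receptor of nicotinic acid, differed by -1.60 (adjusted p = 0.0112), with 5.67 and 5.69 in DMSO-Sham replicates 1 and 2 but 8.04 in replicate 3. Ptges, which works after Ptgs2 in prostaglandin E2 synthesis, differed by -0.46 (adjusted p = 0.0165).

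The proliferation genes Mki67 and Top2a were dim and lower. Mki67 read 3.66, 3.67 and 3.74 in U0126-Sham against 4.28, 4.33 and 5.12 in DMSO-Sham arrays (-0.88, adjusted p = 0.0298), and Top2a differed by -0.38 (adjusted p = 0.091), at the edge of the fold limit. The 11 genes of this section were fitted with the same model, and each was at 1 probe set.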
